A study of Mus musculus with 8 samples.

Results

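The early response to TGF-β was compared between 2 genotypes of NMuMG, a line of mouse mammary epithelial cells. For each gene, the log2 change on treatment in control cells was subtracted from the log2 change in cells labelled KO, and a positive difference means that the response was the more positive one in KO. All 8 libraries of the series entered this comparison, and 13028 of the 37310 genes in the count table had enough reads to be tested. The groups were control cells without TGF-β (control), control cells given 10 ng/ml TGF-β1 for 2 h (control_TGFb2h), KO cells without TGF-β (KO) and KO cells given the same dose for the same time (KO_TGFb2h), each with 2 libraries. In KO cells, a stretch of *Lnc-Nr6a1* covering its promoter and first exon had been removed with CRISPR-Cas9. KO cells were grown from single sorted cells, and the material of the study points to 1 clone, so the deletion and the particular clone cannot be told apart. Both genotypes grew in medium with serum and insulin. The control is described by the labels only as control cells, and the 2 libraries of a group are called biological replicates in the study, with no record of separate clones.

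TGF-β binds a pair of receptor kinases that phosphorylate SMAD proteins, which enter the nucleus and switch on target genes within hours. Among the first targets are inhibitors of the pathway itself, such as *Smad7*, *Skil* and *Spsb1*, and transcription factors such as *Snai1* that start the epithelial to mesenchymal transition (EMT), in which mammary epithelial cells loosen their junctions and gain motility. TGF-β is also known as a brake on the epithelial cell cycle. Genes of DNA synthesis are switched on before S phase by E2F factors, those of mitosis later by complexes that read CHR and CCAAT elements, and replication-dependent histone messages are made and kept only during S phase. A difference between genotypes can therefore lie in the SMAD targets, in the early growth-factor genes, in the adhesion and matrix genes of EMT or in the cell cycle.

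The targeted RNA came first. *Lnc-Nr6a1*, which the annotation names *Gm13507* (ENSMUSG00000085201.1, plus strand, NCBIM37 chr2:38678777-38707890), had 3 and 14 counts in the control libraries and 25 and 35 in the control_TGFb2h libraries. It had 11 and 7 counts in the libraries labelled KO and 0 in both libraries labelled KO_TGFb2h. The treated libraries were thus separated by genotype as labelled, whereas the untreated libraries overlapped, so this gene, at 14 counts or fewer, does not check the label of the untreated KO libraries, and the KO libraries are called the libraries labelled knockout throughout. Other genes, chosen after their values were seen, separated the untreated libraries by label: *Mal2* had 52 and 67 counts and *Dsg2* 76 and 87 in control, both had 0 in each library labelled KO or KO_TGFb2h, and *Celf2* had 151 and 177 counts in control and 1 and 3 in the libraries labelled KO. They are not the deleted gene. Counts of 0 allow up to 0.244 and 0.238 CPM (counts relative to library size) in the treated libraries, for counting error only, and a fitted difference of -8.41 on the log2 scale rests on these zeros and gives no size. *Nr6a1*, the nuclear receptor gene on the opposite strand that hosts this RNA, measured 18.1 and 20.1 CPM in control and 8.62 and 7.62 in control_TGFb2h. In the libraries labelled knockout it measured 24.7 and 25.6 CPM before and 19.4 and 18.99 after TGF-β. Its fall in control cells by 1.23 on the log2 scale was called (edgeR, adjusted p = 0.00734), that of -0.39 in the libraries labelled knockout was not (edgeR, adjusted p = 0.261), and the difference of 0.84 (standard error 0.28) did not pass (edgeR, adjusted p = 0.497). Reads of either strand may have been counted for both genes, since no source used here gives the strand setting.

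No single gene passed the test of a different response. At an adjusted p below 0.05 in edgeR's quasi-likelihood test (Benjamini-Hochberg over all genes tested) the count was 0 of 13028, or 0%, with a smallest adjusted p of 0.0615. At an unadjusted p below 0.05, 1134 genes (8.7%) differed, of which 642 (4.93%) responded more positively and 492 (3.78%) more negatively in the libraries labelled knockout. DESeq2 called 25 genes, 21 of them more positive, and limma-voom called 0. The median standard error of a difference was 0.32 on the log2 scale, and with 2 libraries a group a 95% interval reached 2.24 standard errors to either side. Differences of single genes are therefore given below with their intervals as values, and gene groups are described by counts and medians beside those of all genes, whose median difference was 0.00. In bulk RNA, fewer cells of a kind and less RNA per cell cannot be told apart.

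Both genotypes responded to TGF-β, and no gene was called in opposite directions. A response was called at an adjusted p below 0.05 (edgeR, Benjamini-Hochberg) and an absolute log2 change above 0.5. By this rule 611 genes (4.69%) rose and 583 (4.47%) fell in control cells, and 554 (4.25%) rose and 335 (2.57%) fell in the libraries labelled knockout. Called in both were 349 genes that rose, with median log2 changes of 1.17 in control and 1.28 in the libraries labelled knockout, and 160 that fell, with medians of -1.29 and -1.30. The counts moved with single libraries: with 1 left out, 145 (without control replicate 1) to 1484 genes (without control_TGFb2h replicate 1) were called in control cells, beside 1194, and 136 (without KO replicate 1) to 1381 genes (without control_TGFb2h replicate 2) in the libraries labelled knockout, beside 889. A further 423 genes were called down in control cells alone, with medians of -0.96 and -0.32, and 349 of these had the same sign in both genotypes. A call in one genotype alone does not show a difference, since only 215 of those 423 genes also had an unadjusted p below 0.05 for the difference itself. Among the 642 genes with a more positive response at that p, the control response was the larger one in size in 423, and 226 of the 642 were called down in control cells against 81 called up in the libraries labelled knockout.

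**Figure D1:**
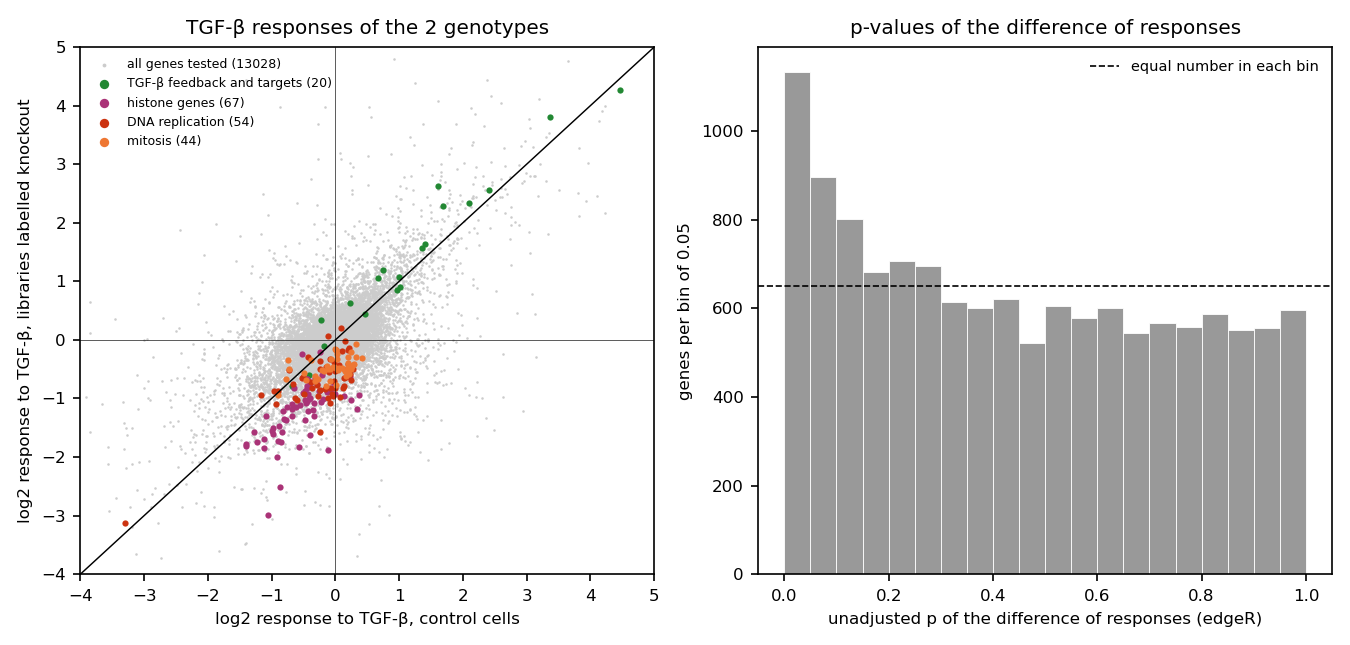
Left, log2 response to TGF-β of each gene tested in control (x axis) and libraries labelled knockout (y axis), with 4 gene lists coloured and the diagonal marking equal responses; genes beyond the axes are not drawn. Right, the number of genes in each bin of 0.05 of the unadjusted p of the difference in edgeR, with 1134 genes in the lowest bin and a dashed line at an equal number per bin. Histone, replication and mitosis genes lie mostly below the diagonal, and TGF-β feedback genes lie on both sides of it.

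Genes of DNA replication, of mitosis and of the replication-dependent histones responded more negatively in the libraries labelled knockout than the controls did, with median differences of -0.45, -0.41 and -0.59 on the log2 scale. Promoters of 5 members are shown to let the elements known to time this programme be seen in them: *Cdc6* and *Mcm3*, which load the replicative helicase at origins, *Cdk1* and *Ccnb2*, the kinase and a cyclin that drive entry into mitosis, and *Hist1h2bb*, a core histone gene. Each line gives the 250 bases before the annotated start on the gene's own strand, 5′ to 3′, from RefSeq on GRCm38.p6, at chr11:98907901-98908150 (plus strand) for *Cdc6*, chr1:20820313-20820562 (minus) for *Mcm3*, chr10:69352913-69353162 (minus) for *Cdk1*, chr9:70421555-70421804 (minus) for *Ccnb2* and chr13:23746484-23746733 (plus) for *Hist1h2bb*. Capitals mark matches, on either strand, of the E2F words TTTCCCGC, TTTCGCGC, TTTGCCGC and TTTGGCGC, of the CCAAT box and of the CHR word TTTGAA.
Cdc6: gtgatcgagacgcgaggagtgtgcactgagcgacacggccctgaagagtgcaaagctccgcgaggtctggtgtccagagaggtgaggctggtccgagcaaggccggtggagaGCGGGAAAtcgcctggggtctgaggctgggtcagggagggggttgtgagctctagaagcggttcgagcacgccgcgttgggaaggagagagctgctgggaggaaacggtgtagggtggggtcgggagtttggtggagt
Mcm3: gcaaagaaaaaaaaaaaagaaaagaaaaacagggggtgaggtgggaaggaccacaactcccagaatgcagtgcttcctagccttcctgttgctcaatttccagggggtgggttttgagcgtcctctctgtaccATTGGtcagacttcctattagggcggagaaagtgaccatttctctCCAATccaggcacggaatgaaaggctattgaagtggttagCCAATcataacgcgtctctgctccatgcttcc
Cdk1: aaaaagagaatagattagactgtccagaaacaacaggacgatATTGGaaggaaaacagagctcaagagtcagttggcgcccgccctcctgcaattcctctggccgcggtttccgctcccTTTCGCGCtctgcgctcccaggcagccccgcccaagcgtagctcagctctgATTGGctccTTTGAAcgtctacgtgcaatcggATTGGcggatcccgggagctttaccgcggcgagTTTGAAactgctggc
Ccnb2: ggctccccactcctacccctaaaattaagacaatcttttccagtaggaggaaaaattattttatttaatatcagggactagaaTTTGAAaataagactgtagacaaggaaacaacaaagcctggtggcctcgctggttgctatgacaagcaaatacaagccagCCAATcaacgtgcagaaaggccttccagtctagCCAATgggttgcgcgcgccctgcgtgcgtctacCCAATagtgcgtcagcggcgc
Hist1h2bb: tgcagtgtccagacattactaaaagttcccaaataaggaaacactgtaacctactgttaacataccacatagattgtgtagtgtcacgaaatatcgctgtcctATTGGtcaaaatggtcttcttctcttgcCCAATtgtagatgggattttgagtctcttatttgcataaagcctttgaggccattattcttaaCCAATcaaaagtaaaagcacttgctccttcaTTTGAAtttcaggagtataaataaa

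The *Cdc6* window held 1 E2F word and neither of the other elements. *Cdk1* held 1 E2F word, 3 CCAAT boxes and 2 CHR words, and *Mcm3* held 3 CCAAT boxes alone. *Ccnb2* and *Hist1h2bb* each held 3 CCAAT boxes and 1 CHR word. Over the same 250 bases, an E2F word stood in 11 of 44 replication promoters (25%), in 8 of 58 histone promoters (13.8%) and in 3 of 38 mitosis promoters (7.89%), beside 4.2% of the 9281 promoters of tested genes that could be matched and 2.16% of all 27025 promoters. A CCAAT box stood in 59.1% of replication, 81% of histone and 76.3% of mitosis promoters, beside 41.4% of those of tested genes and 37.5% of all. A CHR word stood in 15.9%, 44.8% and 42.1% of the same lists, beside 12.9% and 18.3%. These words are matches of letters and were not tested as binding sites, and the promoters come from another build than the counts.

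Of 54 replication genes, 46 had a negative difference, beside 50% of all genes, and 22 had an unadjusted p below 0.05 in that direction, beside 3.78% of all genes. None had one in the other direction. TGF-β lowered 22 of the 54 in the libraries labelled knockout, where 2.57% of all genes fell, and 7 in control cells, where 4.47% did, all 7 of them among the 22. The summed level of the list was 5727 and 5448 CPM in control and 4787 and 5507 in control_TGFb2h. In the libraries labelled knockout it was 4648 and 5160 CPM before TGF-β and 3584 and 2854 after it, the lowest 2 of the 8. The median log2 change of the list was between -0.18 and -0.02 over the 4 pairs of a treated and an untreated control library and between -0.90 and -0.44 over the 4 pairs of the libraries labelled knockout, so the genotypes did not overlap. By role, for the 40 genes assigned to one, origin licensing (ORC, CDC6, CDT1 and the MCM helicase) had a median difference of -0.33 with 13 of 15 genes negative, CDC45 and GINS, which turn the loaded helicase on, of -0.61 with 5 of 5, and the polymerases and primase of -0.50 with 7 of 8. PCNA and its loader, the sliding clamp, had -0.58 with 6 of 6 genes, and the enzymes that supply deoxynucleotides had -0.60 with 6 of 6.

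*Cdc6*, whose promoter is shown above, had the smallest unadjusted p of the list (0.000561). It measured 49.3 and 49.4 CPM in control, 38.5 and 44.5 in control_TGFb2h, and 40.6 and 52.1 untreated and 16.9 and 14.2 treated in the libraries labelled knockout. The 2 treated libraries labelled knockout were thus far below the other 6. *Cdc6* fell by 1.58 on the log2 scale in the libraries labelled knockout (edgeR, adjusted p = 0.00201), beside -0.25 in control cells (edgeR, adjusted p = 0.410), and the difference was -1.33 (95% interval -1.91 to -0.74, edgeR, adjusted p = 0.392). DESeq2 called this difference. *Mcm3* measured 270 and 238 CPM in control, 242 and 247 in control_TGFb2h, and 225 and 242 untreated and 132 and 116 treated in the libraries labelled knockout. Control cells and untreated libraries labelled knockout lay close together and the last 2 libraries lay apart, with a difference of -0.87 (95% interval -1.30 to -0.43, edgeR, adjusted p = 0.430). *Dut*, which removes dUTP from the nucleotide pool, had a difference of -0.94 (95% interval -1.46 to -0.42), with levels of 104 to 140 CPM in 6 libraries and 68.2 and 62.5 in the treated libraries labelled knockout.

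Of 67 replication-dependent histone genes tested, 65 had a negative difference. An unadjusted p below 0.05 in that direction was found for 19, beside 3.78% of all genes. The median changes over library pairs, -0.91 to -0.13 in control and -1.41 to -0.78 in the libraries labelled knockout, overlapped. TGF-β lowered 37 of them in the libraries labelled knockout and 7 in control cells, all 7 among the 37, beside 2.57% and 4.47% of all genes. Their summed level was 10059 and 8094 CPM in control, 7724 and 6492 in control_TGFb2h, and 7673 and 9271 untreated and 4815 and 3589 treated in the libraries labelled knockout. The histones were lower in the treated than in the untreated libraries of both genotypes, with the lowest sums in the treated libraries labelled knockout. By class, the median difference was -0.81 for linker histone H1 (5 of 5 negative), -0.73 for H2A (17 of 18), -0.69 for H2B (18 of 19), -0.55 for H3 (12 of 12) and -0.52 for H4 (13 of 13). *Hist1h2bb* measured 246 and 177 CPM in control, 345 and 204 in control_TGFb2h, and 260 and 239 untreated and 143 and 115 treated in the libraries labelled knockout. Its difference was -1.32 (95% interval -2.12 to -0.52, edgeR, adjusted p = 0.444). *Hist1h4m* fell by 1.88 in the libraries labelled knockout (edgeR, adjusted p = 0.0117), to 7.42 and 8.34 CPM from 39.0 and 19.9, and had a difference of -1.77 (standard error 0.46). *Hist2h4* fell by 0.96 (edgeR, adjusted p = 0.0390) and had a difference of -1.09 (standard error 0.32). Histone genes have near-identical copies, between which the counting may have split reads, so single members are less certain than their sum.

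Of 44 mitosis genes, 40 had a negative difference and 10 an unadjusted p below 0.05 in that direction, beside 3.78% of all genes. Few single responses were called: 5 genes fell in the libraries labelled knockout, where 2.57% of all genes fell, and 2 in control cells. The latter count was close to the 4.47% of all genes that fell there. The pair medians overlapped here too, at -0.24 to 0.21 and -0.88 to -0.13. The summed level was 9258 and 9299 CPM in control, 8402 and 11294 in control_TGFb2h, and 6892 and 7654 untreated and 6457 and 4375 treated in the libraries labelled knockout. Kinesins and spindle proteins had the most negative median, -0.62 with 9 of 9 genes negative, followed by mitotic cyclins and kinases with -0.47 (8 of 10) and condensins with -0.33 (7 of 8). *Cdk1* measured 244 and 212 CPM in control, 271 and 246 in control_TGFb2h, and 190 and 208 untreated and 151 and 126 treated in the libraries labelled knockout. It was higher after TGF-β in each control pair and lower in each pair of the other genotype, with log2 changes of 0.18 and -0.52 that were not called and a difference of -0.70 (95% interval -1.18 to -0.22, edgeR, adjusted p = 0.474). *Ccnb2* had the same pattern, with changes of 0.27 and -0.45 and a difference of -0.72 (95% interval -1.22 to -0.22). *Ncaph* and *Ncapd3*, subunits of the condensins that fold chromosomes, fell by 0.76 and 0.70 in the libraries labelled knockout (edgeR, adjusted p = 0.0365 and 0.0390) and had differences of -0.78 and -0.62.

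The cell-cycle medians moved with single libraries. The treated library labelled knockout of replicate 2 had the lowest summed replication, histone and mitosis level of all 8, and without it the medians were -0.26, -0.44 and -0.13, with 11, 5 and 1 genes at an unadjusted p below 0.05. These counts, 22, 19 and 10 with all libraries, also fell to 11, 6 and 2 without KO replicate 2, and those of histone and mitosis genes to 4 and 3 without control replicate 2. Without control_TGFb2h replicate 1 the histone count was 9, and without control_TGFb2h replicate 2 the counts were 34 for histones and 3 for mitosis, which without control replicate 1 had 6. Without the other treated library labelled knockout the medians were -0.62, -0.77 and -0.80, with 26, 29 and 25 such genes, and without control_TGFb2h replicate 1 the histone median was -0.32. All 3 medians stayed negative in each of the 8 fits with a library left out, and offsets for GC content and length gave -0.51, -0.48 and -0.43. Regulators of the preceding G1 phase had a median on the other side. Of 20 G1 cyclins, CDK inhibitors and *Myc* family genes, 8 had a negative difference, the median was 0.15 (0.07 without control_TGFb2h replicate 2), and none was called in either genotype. In that list *Rbl1*, a pocket protein that holds E2F targets off, had a difference of -0.69 (95% interval -1.35 to -0.03, edgeR, adjusted p = 0.550), and *Cdk4*, the G1 kinase, of -0.35 (95% interval -0.80 to 0.10).

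**Figure D2:**
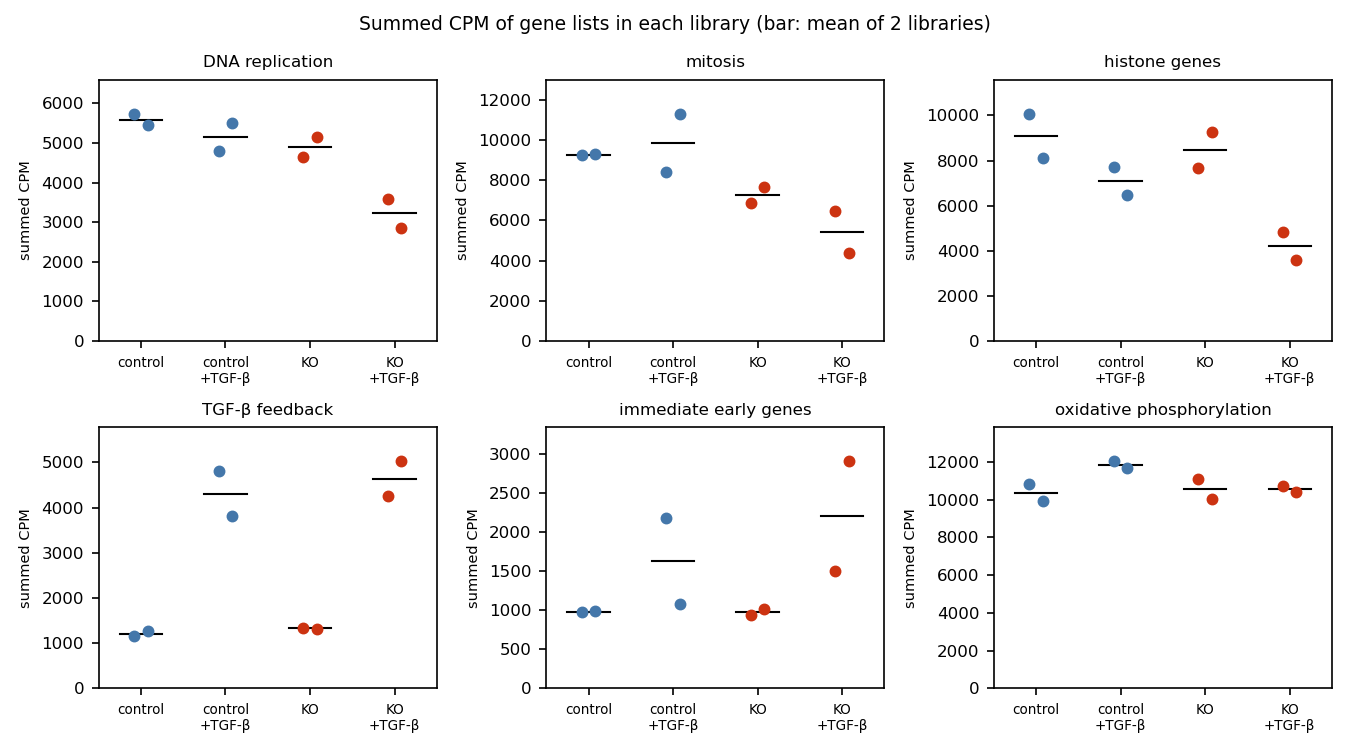
Summed CPM of 6 gene lists in each library (points) by group (x axis), with a bar at the mean of the 2 libraries; each y axis starts at 0. The treated libraries labelled knockout have the 2 lowest sums for DNA replication (3584 and 2854 CPM) and histone genes (4815 and 3589 CPM), while the TGF-β feedback list is between 3807 and 5022 CPM after treatment in both genotypes.

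TGF-β feedback genes and EMT factors responded in both genotypes, and no difference between the genotypes could be resolved. Of 20 feedback and SMAD target genes, 11 rose in control and 12 in the libraries labelled knockout, with 11 shared, beside 4.69% and 4.25% of all genes, and none fell. Their summed level was 1152 and 1262 CPM in control and 4809 and 3807 in control_TGFb2h, and 1345 and 1320 CPM without and 4245 and 5022 with TGF-β in the libraries labelled knockout. The median difference was 0.18 (0.03 without control replicate 2 and 0.44 without control_TGFb2h replicate 1), 7 of the 20 were negative, and the median changes over library pairs, 0.98 to 1.38 in control and 0.99 to 1.49 in the other genotype, overlapped. *Skil*, a co-repressor that binds SMADs, measured 100 and 137 CPM in control and 528 and 487 in control_TGFb2h. In the libraries labelled knockout it measured 82.7 and 103, then 453 and 490 CPM, so that the treated levels of the 2 genotypes lay within the spread between replicates. Its responses of 2.09 and 2.34 were both called (edgeR, adjusted p = 0.000507 and 0.000313), and the 95% interval of the difference, -0.32 to 0.81, leaves room for responses up to that far apart.

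*Smad7*, which blocks the receptor, went from 27.6 and 33.6 to 130 and 66.99 CPM in control cells and from 38.8 and 31.4 to 132 and 207 CPM in the libraries labelled knockout. The treated replicates differed from each other in both genotypes, and the difference of 0.59 had a 95% interval of -0.41 to 1.60. *Bhlhe40*, a repressor that TGF-β induces, is the only feedback gene with an unadjusted p below 0.05. It went from 61.1 and 73.6 to 213 and 196 CPM in control cells and from 82.7 and 56.4 to 385 and 468 CPM in the libraries labelled knockout, with responses of 1.60 and 2.62 and a difference of 1.02 (95% interval 0.39 to 1.65, edgeR, adjusted p = 0.445). *Bhlhe40* overlaps an exon on the opposite strand.

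Of 8 EMT factors tested, 4 rose in control and 3 in the libraries labelled knockout, with 3 shared, beside 4.69% and 4.25% of all genes, and the median difference was 0.14, from -0.01 without KO_TGFb2h replicate 2 to 0.31 without KO_TGFb2h replicate 1. *Snai1*, which represses E-cadherin, went from 0.724 and 0.732 to 15.3 and 12.5 CPM in control cells and from 1.54 and 1.46 to 26.1 and 21.9 CPM in the libraries labelled knockout. The level was higher in the second genotype with and without TGF-β, and the responses, 4.23 and 3.99, differed by -0.24 (95% interval -1.27 to 0.80). *Zeb1*, a repressor of epithelial genes, was called up in control cells (0.88, edgeR, adjusted p = 0.0250) and not in the other genotype (0.70, edgeR, adjusted p = 0.0616), yet the difference was -0.18 (95% interval -0.78 to 0.43). Of 19 ligands, receptors and SMADs, 4 rose in each genotype, the same 4, beside the same shares of all genes, and the median difference was 0.09, from -0.02 without control replicate 2 to 0.21 without control_TGFb2h replicate 1.

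*Id1* and *Id3*, of the inhibitor of differentiation (ID) family, which block bHLH transcription factors and are known targets of BMP signals, fell in control cells and were not called in the libraries labelled knockout. *Id1* measured 119 and 102 CPM in control and 76.2 and 65.2 in control_TGFb2h, a fall by 0.65 (edgeR, adjusted p = 0.0480). In the libraries labelled knockout it measured 64.4 and 74.3 CPM before and 96.0 and 76.1 after TGF-β, a change of 0.31 that was not called, and the untreated level was below that of control. The difference was 0.96 (95% interval 0.41 to 1.51, edgeR, adjusted p = 0.444). *Id3* fell by 1.10 in control cells (edgeR, adjusted p = 0.0480), from 54.2 and 34.3 to 26.1 and 15.1 CPM, and measured 26.4 and 26.3 before and 34.0 and 26.5 CPM after TGF-β in the libraries labelled knockout, with a difference of 1.30 (95% interval 0.36 to 2.23). *Fst*, follistatin, which binds activin, rose in both genotypes, by 1.01 and 2.62 (edgeR, adjusted p = 0.0477 and 0.00330). Its levels lay apart by genotype throughout, at 35.0 and 34.8, then 80.8 and 59.7 CPM in control cells and at 3.53 and 2.79, then 13.5 and 24.6 CPM in the libraries labelled knockout. *Inhbb*, an activin subunit, was at 8.15 to 12.3 CPM in control cells and at 0.221 to 1.19 CPM in the libraries labelled knockout, where the untreated libraries were below the floor of 3 counts, so no size of its difference is given. Over 13 ID, BMP and activin genes the median difference was 0.39 with 4 negative, and it ran from 0.07 without KO_TGFb2h replicate 2 to 1.11 without control_TGFb2h replicate 1.

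Immediate-early genes, the transcription factors that growth factor signals induce without new protein synthesis, had a median difference of 0.61, which rested on single libraries. Their summed level was 976 and 985 CPM in control, 2179 and 1084 in control_TGFb2h, and 939 and 1021 untreated and 1501 and 2905 treated in the libraries labelled knockout, so that the treated replicates of each genotype lay far apart and the genotypes overlapped. Of 23 genes, 6 rose in the libraries labelled knockout, beside 4.25% of all genes, and 2 rose and 1 fell in control cells, beside 4.69% and 4.47%. Without KO_TGFb2h replicate 2 the median was -0.13, and without control_TGFb2h replicate 1 it was 1.46. *Fosl2*, an AP-1 subunit, held its groups together better, at 63.3 and 72.1, then 239 and 172 CPM in control cells and 58.2 and 68.5, then 318 and 438 CPM in the libraries labelled knockout. It rose in both (1.60 and 2.57) with a difference of 0.97 (95% interval 0.31 to 1.64, edgeR, adjusted p = 0.474). *Egr1* measured 3.14 and 10.7, then 0.750 and 0.847 CPM in control cells and 3.31 and 4.79, then 1.22 and 2.38 CPM in the other genotype, and the 95% interval of its difference, -0.12 to 3.97, includes 0. *Egr2* was at or below 5.17 CPM in all libraries, at 0 in 1 of them, and is given no fold.

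Feedback genes of the MAP kinase pathway followed the same libraries, with a median difference of 0.33 over 18 genes that was -0.02 without KO_TGFb2h replicate 2 and 0.79 without control_TGFb2h replicate 1. *Spred2*, an inhibitor of RAF activation, was steadier and went from 25.6 and 27.9 to 51.3 and 52.3 CPM in the libraries labelled knockout, a rise of 0.95 (edgeR, adjusted p = 0.0109), and from 19.3 and 21.7 to 27.6 and 24.9 CPM in control cells, with a difference of 0.60 (95% interval 0.07 to 1.12). *Spry2* showed the single-library pattern, at 5.30 and 22.9 CPM in the 2 treated libraries labelled knockout. Of 11 Krüppel-like factors, 10 had a positive difference with a median of 0.29, but without KO_TGFb2h replicate 2 only 6 did, and the median ran from 0.16 without control_TGFb2h replicate 2 to 0.66 without control_TGFb2h replicate 1. *Klf3* fell by 1.33 in control cells (edgeR, adjusted p = 0.00230) and had -0.60 in the libraries labelled knockout, a difference of 0.73 (standard error 0.23). *Klf13* rose by 0.64 in the libraries labelled knockout alone (edgeR, adjusted p = 0.0354), with a difference of 0.49 (standard error 0.21).

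**Figure D3:**
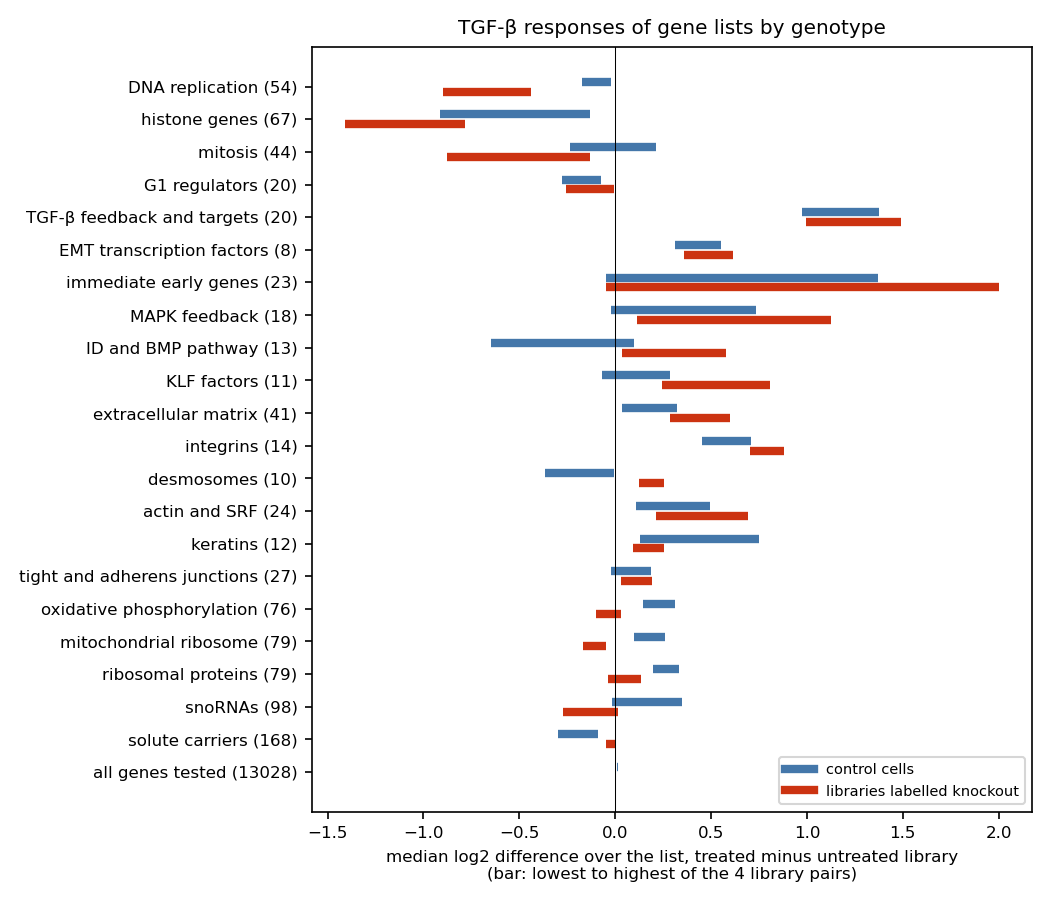
Median log2 difference between a treated and an untreated library over each gene list (x axis), as the span of the 4 library pairs of each genotype (blue, control; red, libraries labelled knockout), with the number of genes tested in parentheses. The spans do not overlap for DNA replication (-0.18 to -0.02 and -0.90 to -0.44) or for desmosomes. They also do not overlap for oxidative phosphorylation, the mitochondrial ribosome, ribosomal proteins and solute carriers. Even the narrow spans of all genes tested do not overlap (0.008 to 0.012 and -0.0005 to 0), so non-overlap alone does not set a list apart. The spans overlap for immediate-early genes (-0.05 to 1.37 and -0.05 to 2.00).

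Matrix, desmosome and integrin genes had positive median differences, which were smaller with offsets for GC content and length. Of 41 collagens, laminins and other matrix genes, 32 had a positive difference with a median of 0.49, and 6 had an unadjusted p below 0.05 in that direction, beside 4.93% of all genes. With offsets for GC content and length, taken up below, only 2 did, and 2 in the other direction. The 6 became 13 without control_TGFb2h replicate 1 and 10 without KO_TGFb2h replicate 1, and the pair medians, 0.04 to 0.32 in control and 0.28 to 0.60 in the libraries labelled knockout, overlapped. In control cells 11 of them rose and 2 fell, and in the libraries labelled knockout 10 rose and none fell, with 9 shared. Of all genes, 4.69% rose and 4.47% fell in the former and 4.25% and 2.57% in the latter. *Lamb3*, a chain of the laminin of hemidesmosomes, rose in both genotypes, by 0.85 and 1.59 (edgeR, adjusted p = 0.01001 and 0.000672), from 276 and 305 to 577 and 470 CPM in control cells and from 559 and 492 to 1529 and 1629 CPM in the libraries labelled knockout. Its level was higher in the second genotype at both times, and the difference of the responses was 0.74 (95% interval 0.27 to 1.20, edgeR, adjusted p = 0.445). *Lamb2* fell by 0.67 in control cells (edgeR, adjusted p = 0.0490) and had 0.13 in the libraries labelled knockout. *Col6a1*, a chain of collagen VI, measured 74.3 and 94.5, then 51.1 and 54.3 CPM in control cells and 75.8 and 103, then 123 and 117 CPM in the other genotype, with no called response and a difference of 1.10 (95% interval 0.51 to 1.68). *Plod1*, a lysyl hydroxylase of collagens, had a difference of 0.80 (95% interval 0.25 to 1.36).

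Desmosomes, the junctions that tie keratin filaments of neighbouring epithelial cells together, followed the same side. Of 10 components, 9 had a positive difference with a median of 0.45, which was 0.25 with 7 positive without control_TGFb2h replicate 1, and the median change over library pairs was -0.36 to -0.01 in control cells and 0.12 to 0.26 in the libraries labelled knockout. *Dsg2*, a desmosomal cadherin, had no counts in any library labelled KO or KO_TGFb2h, as given above. It has no measurable response there, so any share it has in these counts and medians gives no direction. *Jup*, plakoglobin, which links desmosomal cadherins to the plaque, measured 267 and 247, then 268 and 256 CPM in control cells. The libraries labelled knockout gave 327 and 327 CPM before and 584 and 657 after TGF-β, a rise of 0.92 (edgeR, adjusted p = 0.00395) beside 0.03 in control cells. The difference was 0.90 (95% interval 0.49 to 1.31, edgeR, adjusted p = 0.409), and DESeq2 called it. *Ppl*, periplakin, went from 194 and 204 to 83.9 and 87.1 CPM in control cells, a fall by 1.22 (edgeR, adjusted p = 0.00227), and from 178 and 178 to 131 and 164 CPM in the libraries labelled knockout, with a difference of 0.94 (95% interval 0.48 to 1.41). *Dsp*, desmoplakin, had a difference of 0.50 (95% interval -0.03 to 1.03). Tight and adherens junction genes (27 genes, median 0.09) and keratins with vimentin (12 genes, median -0.02) lay near the median of all genes. With 1 library left out these medians ran from 0.05 to 0.24 and from -0.11 to 0.11.

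Of 14 integrin subunits, 8 rose in the libraries labelled knockout, beside 4.25% of all genes, and 5 rose, beside 4.69%, and 1 fell in control cells, the 5 among the 8. The median difference was 0.36 with 10 positive, and it ran from 0.20 without KO_TGFb2h replicate 2 to 0.53 without control_TGFb2h replicate 1. *Itgav*, the subunit through which cells activate latent TGF-β, rose by 1.08 in the libraries labelled knockout (edgeR, adjusted p = 0.0111) and had 0.49 in control cells, a difference of 0.59 (95% interval -0.01 to 1.19). *Itgb4*, the hemidesmosome subunit, had changes of -0.44 and 0.47, neither called, and a difference of 0.90 (95% interval 0.11 to 1.70). *Tln1*, talin, which couples integrins to actin, measured 277 and 311, then 212 and 199 CPM in control cells and 289 and 318, then 379 and 464 CPM in the other genotype, with a difference of 0.99 (95% interval 0.52 to 1.46, edgeR, adjusted p = 0.430). The untreated levels of *Tln1* were alike and the treated ones moved apart. *Myh9*, the heavy chain of nonmuscle myosin, measured 1474 to 1549 CPM in the 4 control libraries and 1599 and 1806, then 2134 and 2911 CPM in the others, with a difference of 0.60 (95% interval 0.10 to 1.10). *Mkl1*, the actin-sensing coactivator of SRF, rose by 1.03 in the libraries labelled knockout (edgeR, adjusted p = 0.0276), beside 0.14 in control cells.

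GC content and length of the genes moved with these positive medians. The difference of responses was highest among the genes richest in GC. Its median was -0.06 among the 20% of genes lowest in GC, -0.09 among the next 20% and 0.20 among the 20% highest (above 55.4%). With exon length it rose from -0.22 among the shortest 20% (up to 1515 bases) to 0.11 among the longest. Relative to the mean of all genes, the genes highest in GC were lower by 0.64 on the log2 scale in control_TGFb2h replicate 2 and by 0.27 in replicate 1, and by 0.13 and 0.33 in control replicates 1 and 2, while in the libraries labelled knockout the offset was between -0.16 and 0.00. Matrix genes had a median GC content of 55.3% and a median length of 6563 bases, and desmosome genes 53% and 5992 bases. With offsets for GC and length the medians were 0.13 for matrix, 0.22 for desmosome, 0.22 for integrin and 0.06 for actin genes, from 0.24 for the last, which was 0.03 without KO_TGFb2h replicate 2 and 0.47 without control_TGFb2h replicate 1. Their part in the result was otherwise not tested.

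Short genes of energy and protein production had more negative responses in the libraries labelled knockout, by small amounts. Of 76 nuclear genes of the respiratory chain, 60 had a negative difference with a median of -0.27. An unadjusted p below 0.05 in that direction was found for 12, beside 3.78% of all genes. In the same direction 31 did not overlap between the genotypes, beside 11.8% of all genes. The 12 became 2 without control replicate 2, 4 without KO replicate 1 or either library of KO_TGFb2h, and 4 with offsets for GC and length. Few single responses were called. In control cells 2 genes rose, beside 4.69% of all genes, and none changed in the libraries labelled knockout, where 4.25% of all genes rose and 2.57% fell. The summed level was 10801 and 9920 CPM in control, 12030 and 11689 in control_TGFb2h, and 11083 and 10049 untreated and 10714 and 10429 treated in the libraries labelled knockout. The shift thus came with a higher sum in treated control cells, whereas the libraries labelled knockout overlapped. By complex, the median was -0.26 for complex I (29 of 36 negative), -0.26 for complex III (7 of 8), -0.34 for complex IV (9 of 11) and -0.13 for the ATP synthase (12 of 17). *Atp5e*, a subunit of the ATP synthase, measured 113 and 83.0, then 185 and 136 CPM in control cells and 130 and 120, then 102 and 113 CPM in the other genotype, with a difference of -0.94 (95% interval -1.56 to -0.31, edgeR, adjusted p = 0.467). *Atp5h* had a difference of -1.09 and *Atp5j2* of -0.71, with no called response in either genotype. *Uqcrh*, of complex III, rose by 0.61 in control cells (edgeR, adjusted p = 0.0321) and had 0.03 in the libraries labelled knockout.

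Genes of the mitochondrial ribosome (79 genes, 64 negative, median -0.30) and of the cytosolic ribosome (79 genes, 60 negative, median -0.20) lay on the same side, the latter at -0.11 with 49 negative without control_TGFb2h replicate 1. Median lengths were 1304 bases for respiratory chain, 1590 for mitochondrial ribosome and 1464 for cytosolic ribosome genes, and with offsets for GC and length the medians were -0.17, -0.20 and -0.10. Most classes of small RNAs lay on the same side, but 33 miRNA genes had a median difference of 0.13 (15 negative). The median difference was -1.06 for 41 snRNA genes (33 negative), -0.35 for 121 snoRNA genes (72 negative) and -0.74 for 33 genes of other small RNAs (26 negative), and pseudogenes, many of them copies of short messages, had -0.23 over 966 genes. Small structural RNAs made up 3.60 and 3.23% of the counts in control, 5.28 and 4.43% in control_TGFb2h, and 4.44 and 4.42% untreated and 3.51 and 4.12% treated in the libraries labelled knockout. Their share was higher in each treated than in each untreated control library, but replicate 2 of control_TGFb2h was level with the untreated libraries of the other genotype. With these RNAs left out of the fit, the medians were as large, at -0.28 for the respiratory chain, -0.31 for the mitochondrial ribosome and -0.46 for DNA replication. The list of snoRNAs and Cajal-body RNAs was not stable, with a median of -0.38 that was -0.08 with the offsets and 0.27 with no filter on low counts. *Scarna10*, a Cajal-body RNA, measured 153 and 144, then 285 and 250 CPM in control cells, a rise of 0.85 (edgeR, adjusted p = 0.00771), and 236 and 212, then 189 and 209 CPM in the other genotype. Of 16 genes annotated as *7SK*, the RNA that holds the elongation kinase P-TEFb inactive, 10 had a negative and 6 a positive difference, and near-identical copies may share reads. The copy with the highest level had -0.60 and one on chromosome X had 1.63. The copy with the smallest p rose by 0.82 in control cells (edgeR, adjusted p = 0.0391) and had -0.57 in the libraries labelled knockout.

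**Figure D4:**
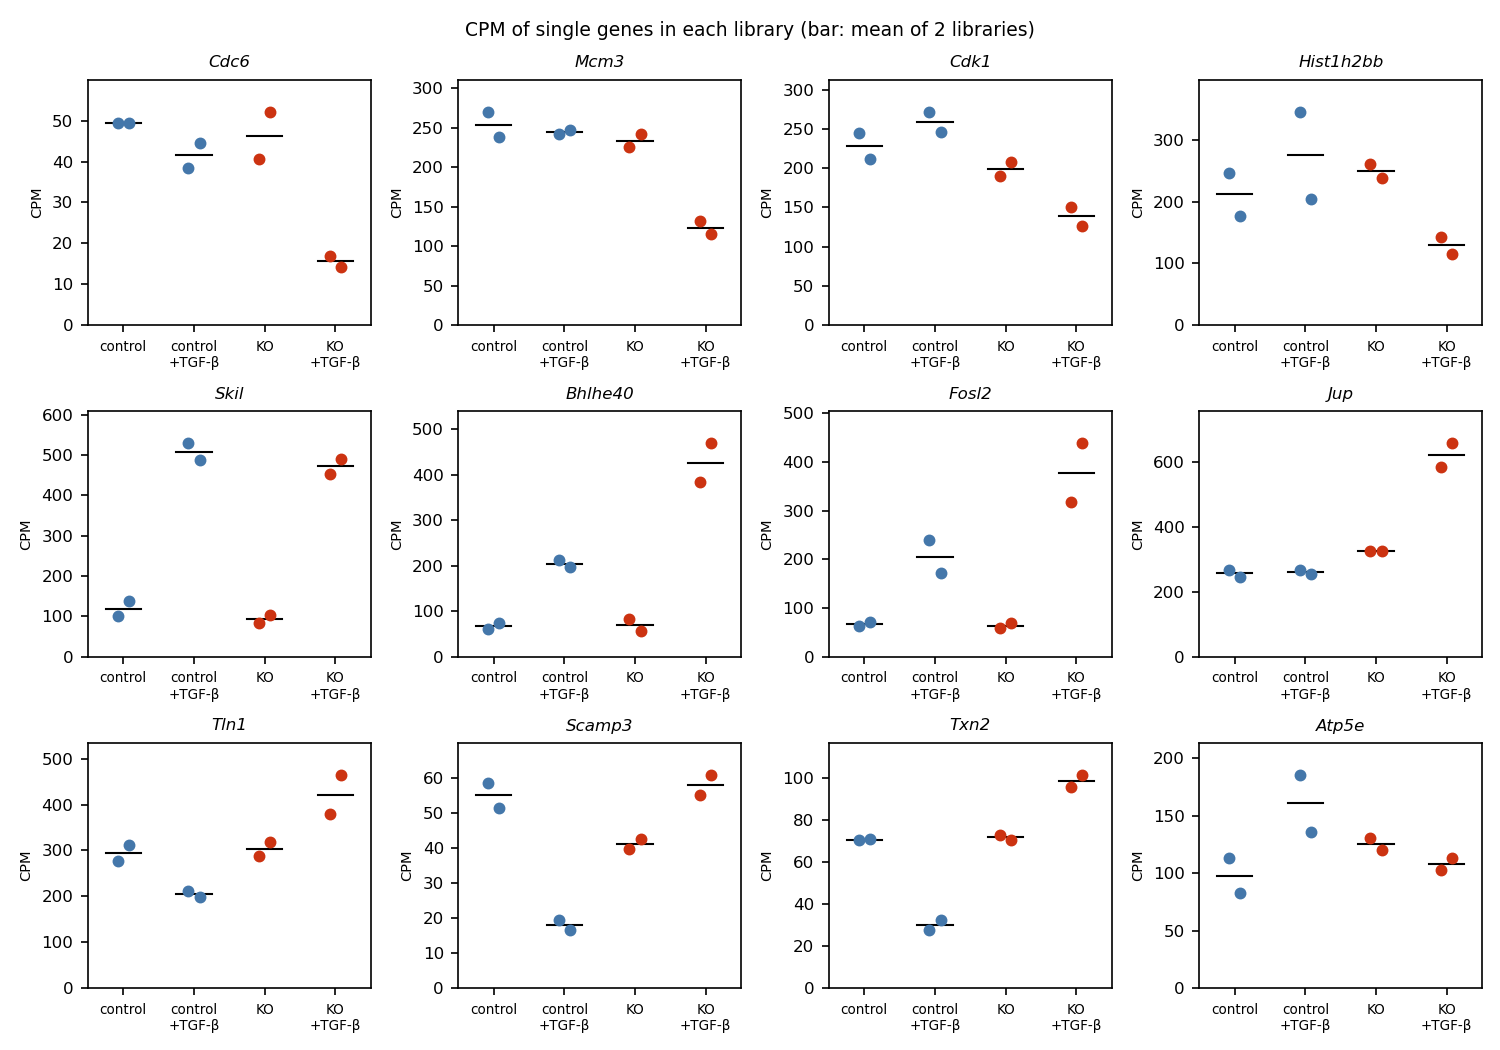
CPM of 12 genes in each library (points) by group (x axis), with a bar at the mean of the 2 libraries and each y axis starting at 0. *Cdc6*, *Mcm3*, *Cdk1* and *Hist1h2bb* are lowest in the 2 treated libraries labelled knockout, *Bhlhe40*, *Fosl2* and *Jup* are highest there, and *Scamp3* and *Txn2* are lowest in the 2 treated control libraries.

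The genes with the smallest p for a more positive response were mostly genes that fell in control cells and did not fall in the libraries labelled knockout. *Scamp3*, a carrier membrane protein of endosomes at NCBIM37 chr3:88981395-88986687, measured 58.5 and 51.5, then 19.5 and 16.7 CPM in control cells, a fall by 1.60 (edgeR, adjusted p = 0.000952). In the libraries labelled knockout it measured 39.7 and 42.5 CPM before and 55.2 and 60.8 after TGF-β, and the difference was 2.10 (95% interval 1.57 to 2.62, edgeR, adjusted p = 0.0615). It overlaps an exon on the opposite strand. *Txn2*, the mitochondrial thioredoxin, measured 70.3 and 70.7, then 27.5 and 32.3 CPM in control cells and 73.0 and 70.6, then 95.6 and 101 CPM in the other genotype, with a difference of 1.70 (95% interval 1.23 to 2.16, edgeR, adjusted p = 0.0615). *Gm15487*, a predicted gene, had a difference of 1.85 with the same adjusted p, and these were the 3 genes below an adjusted p of 0.1 (0.023% of all tested). *Spint2*, an inhibitor of the activators of hepatocyte growth factor, fell by 1.14 in control cells (edgeR, adjusted p = 0.00479), from 87.8 and 87.0 to 34.9 and 44.7 CPM, and was at 100 and 101, then 114 and 137 CPM in the other genotype.

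*Mrpl12*, a mitochondrial ribosomal protein, fell by 1.17 in control cells (edgeR, adjusted p = 0.00738) against the direction of its group, from 60.5 and 54.4 to 20.8 and 30.4 CPM, beside 64.4 and 67.4, then 86.7 and 86.2 CPM in the libraries labelled knockout. *Tnxb*, a tenascin, fell by 2.37 in control cells (edgeR, adjusted p = 0.000933) and had -0.65 in the other genotype. *Gaa*, the lysosomal glucosidase, and *Slc6a9*, a glycine transporter, fell by 1.17 and 1.13 in control cells (edgeR, adjusted p = 0.00505 and 0.00675) and had 0.06 and 0.16 in the libraries labelled knockout. *Wnk4*, a kinase that regulates ion transport, fell in both genotypes, by 3.28 and 1.63 (edgeR, adjusted p = 0.000416 and 0.00295), and *Neat1*, the RNA that scaffolds paraspeckles, fell by 2.20 and 1.12 (edgeR, adjusted p = 0.000524 and 0.00945). In both of these the fall was the larger one in control cells, with differences of 1.64 (95% interval 0.93 to 2.36) and 1.08 (95% interval 0.49 to 1.68). *Malat1*, a nuclear RNA, had changes of -0.37 and 0.37, neither called.

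*Furin* had the other form, a response in the libraries labelled knockout alone. This protease, which cleaves the TGF-β precursor and other proproteins, measured 132 and 118, then 143 and 105 CPM in control cells and 121 and 121, then 265 and 334 CPM in the libraries labelled knockout. It rose by 1.31 there (edgeR, adjusted p = 0.00410), beside -0.01 in control cells, with a difference of 1.31 (95% interval 0.73 to 1.89, edgeR, adjusted p = 0.392). *Celf2*, an RNA-binding splicing regulator, was at 15.1 to 21.6 CPM in the 4 control libraries and at 0.221 and 0.399, then 3.10 and 2.70 CPM in the libraries labelled knockout. The untreated libraries labelled knockout held 1 and 3 counts of it, so its response has no interpretable size. *Rps16-ps2* and *Rpsa-ps2*, pseudogenes of ribosomal protein genes, fell by 2.06 and 1.32 in control cells (edgeR, adjusted p = 0.0310 and 0.0368) and had 1.45 and 1.26 in the libraries labelled knockout, but their reads may be shared with near-identical copies.

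On the negative side, after *Cdc6* and the small RNAs, *Bud31*, a splicing factor, rose by 0.95 in control cells (edgeR, adjusted p = 0.00968), from 85.5 and 87.3 to 151 and 183 CPM, and stayed between 83.7 and 106 CPM in the 4 libraries labelled knockout. *Ranbp1*, a regulator of the nuclear transport GTPase Ran, measured 258 and 213, then 317 and 301 CPM in control cells and 205 and 210, then 151 and 156 CPM in the other genotype, with no called response and a difference of -0.83 (95% interval -1.27 to -0.39). *Akr1c14*, an aldo-keto reductase, had changes of 0.62 and -0.79 and a difference of -1.42 (95% interval -2.19 to -0.65). *Gstp2*, a glutathione transferase, was at 0.477 to 5.50 CPM in all libraries, and *Snora74a*, a snoRNA, rose by 0.81 in control cells (edgeR, adjusted p = 0.0189) and had -0.19 in the other genotype.

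**Figure D5:**
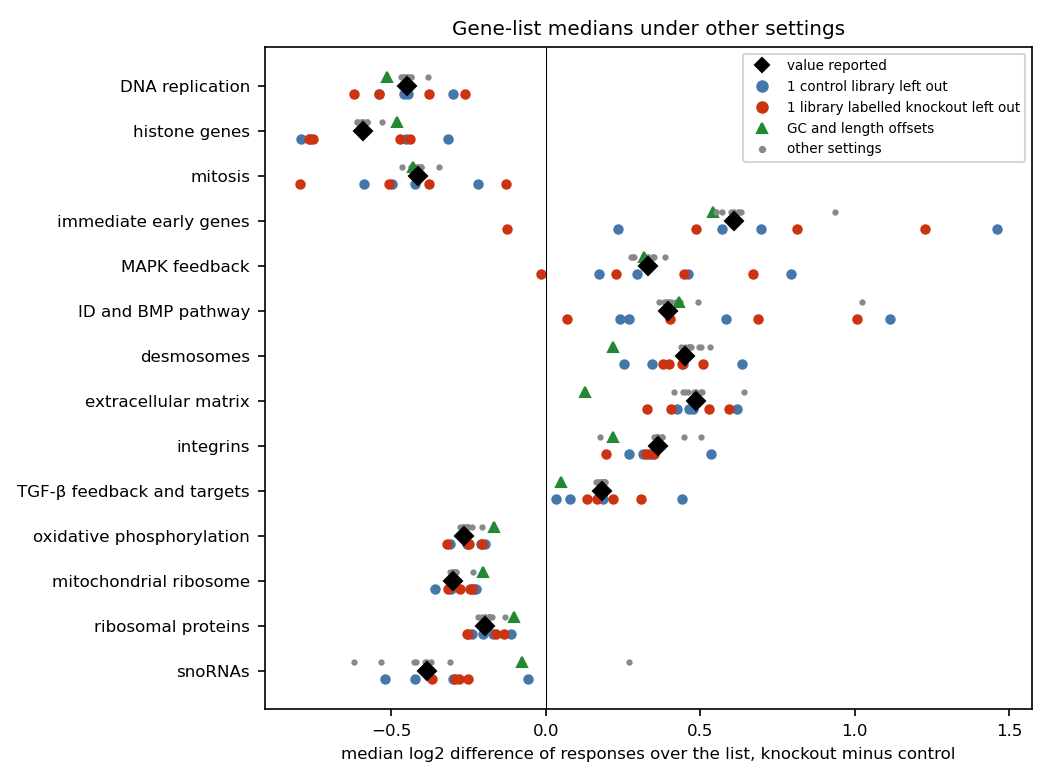
Median log2 difference of responses over 14 gene lists (x axis), with the value reported (diamond), the values with 1 library left out (blue, a control library; red, a library labelled knockout), the value with offsets for GC content and length (triangle) and the other settings (grey). The DNA replication, histone and mitosis medians stay below 0 at every point, and the immediate-early median runs from -0.13 to 1.46.

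Depth ranged from 4297832 to 13574397 counts a library, lowest in an untreated library labelled knockout, and 3 counts, the level that a count of 0 allows, lay between 0.238 and 0.66 CPM. The median absolute difference between the 2 replicates of a group was 0.21 on the log2 scale in control, 0.33 in control_TGFb2h, 0.20 in the untreated and 0.22 in the treated libraries labelled knockout. Of 8 epithelial markers, *Cldn3* had no counts in any library and *Epcam* too few to be tested, and the summed level of the list was 6170 to 6270 CPM in control, 7670 to 10400 in control_TGFb2h, and 6950 to 7360 and 7630 to 9640 CPM without and with TGF-β in the libraries labelled knockout. Fibroblast (6), immune (5) and endothelial (4) markers summed to at most 4.89, 5.85 and 0.808 CPM, with *Lum*, *Thy1*, *Cd3e* and *Kdr* at 0 in all libraries. The 4 basal markers summed to 2.56 to 6.23 CPM without and 22.1 to 40.4 CPM with TGF-β.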

How the data were processed

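RNA-seq counts of NMuMG cells were analysed, 2 biological replicates in each of 4 groups (control, control_TGFb2h, KO, KO_TGFb2h). The authors deposited raw counts per gene in 8 columns, 1 for each library, and all were used. The study's methods name subjunc, samtools rmdup and DESeq2 with mm10 and mm9, and the submitters' processing notes HISAT2, limma and mm10. The labels name a total RNA library kit and the study's methods an mRNA kit, so whether RNAs without a poly(A) tail (histone messages, small RNAs, 7SK) were captured in full is not settled. How reads were counted, and on which strand, is not given in the sources used here. All 37310 gene identifiers matched GENCODE vM1 on NCBIM37, the source of symbols and positions.

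Group means over all libraries were fitted with edgeR 4.0.16 (R 4.3.3) after filterByExpr, with TMM factors, and (KO_TGFb2h - KO) - (control_TGFb2h - control) was tested with glmQLFTest (Benjamini-Hochberg). The step was tested on simulated data. CPM use the TMM factors, except for cell type markers (library totals), and 24282 genes that failed the filter were not tested. P-values and 95% intervals measure the spread between these replicates, and floors of 3 counts cover counting error only.

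The members and the 57 gene lists were chosen with earlier results of these data known. Genes named are the targeted gene and its host, the 15 with the smallest p in each direction, up to 4 of each list, members of the TGF-β feedback and EMT factor lists, and the 5 with the smallest p among abundant genes (mean log2 CPM above 8), and some genes that this rule takes in are not reported here. Exons of another gene on the opposite strand overlap 23 of the 80 named genes, whose counts are less certain: *Atf5*, *Bhlhe40*, *Bud31*, *Cdk4*, *Celf2*, *Dsp*, *Egr1*, *Hist2h2ab*, *Hk1*, *Itgav*, *Itgb4*, *Malat1*, *Mkl1*, *Mrpl12*, *Ranbp1*, *Scamp3*, *Slc6a9*, *Spsb1*, *Srebf1*, *Tln1*, *Tnxb*, *Wnk4* and *Xrn1*.

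The alternatives tried were limma-voom (limma 3.58.1), DESeq2 1.42.0, RLE factors, robust dispersion, other filters and thresholds, thinned counts, no small structural RNAs, a block for the replicate number and each library left out. Loess offsets (span 0.3) for GC content and length, and exchanged replicate numbers, were chosen after seeing the data.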

Additional observations from a re-analysis of the deposited data

Results flagged for a closer look

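In 30 of the 80 named genes, each pair of a treated and an untreated control library moved one way and each pair of the libraries labelled knockout moved the opposite way. The named genes were chosen in large part for a small p of this same difference. The 30 of 80 can therefore not be read against the shares of all genes. Over all 13028 genes, 334 (2.56%) went down in all control pairs and up in all pairs of the libraries labelled knockout, and 350 (2.69%) did the reverse. None of these differences passed an adjusted p of 0.05 in edgeR, where the difference of responses itself was tested, and the values below are log2 differences of the responses.

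Among genes of the cell cycle and of transport, the differences were -0.70 for *Cdk1*, -0.72 for *Ccnb2* and -0.83 for *Ranbp1*. Among genes of the ATP synthase they were -1.09 for *Atp5h*, -0.94 for *Atp5e* and -0.71 for *Atp5j2*. Among adhesion and matrix genes they were 0.99 for *Tln1*, 0.90 for *Itgb4*, 1.10 for *Col6a1* and 0.80 for *Plod1*. For the ID genes they were 0.96 for *Id1* and 1.30 for *Id3*.

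Of the genes with the smallest p, the same holds for *Scamp3* (2.10), *Txn2* (1.70), *Gm15487* (1.85), *Spint2* (1.46), *Mrpl12* (1.56), *Slc6a9* (1.29), *Rpsa-ps2* (2.57) and *Rps16-ps2* (3.51), whose pairs were lower in control cells and higher in the libraries labelled knockout. In the reverse direction it holds for *Scarna10* (-1.02), one *7SK* gene (-1.38), *Gstp2* (-3.53) and *Akr1c14* (-1.42). *Malat1* had 0.74, the amino acid transporter *Slc7a5* 0.88, the stress factor *Atf5* 1.26 and the exonuclease *Xrn1* 0.65. *Celf2* (fitted 3.36) and *Gm13507* (fitted -8.41) had libraries at or below 3 counts, so these fitted values give no size.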

How the results depend on the processing

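The count of genes with a different response, 0 in edgeR, was also 0 with RLE factors, limma-voom, a mean of at least 10 counts, thinned counts, no small structural RNAs and robust dispersion. It was 25 with DESeq2 (21 more positive, 4 more negative in the libraries labelled knockout), 3 at an adjusted p below 0.1, 3 with offsets for GC content and length (3 more positive) and 211 with no filter on low counts (147 and 64). Without the filter, edgeR's prior degrees of freedom became infinite, beside 5.50, so that no gene kept a spread of its own, and 210 of the 211 genes pass the filter. With 1 library left out the count ran from 0 to 6 (0 to 6 more positive, 0 to 1 more negative), with 4 called without control_TGFb2h replicate 1 and 6 without replicate 2. Of the named genes, DESeq2 called 17, among them *Cdc6*, *Jup*, *Tln1*, *Furin* and *Scamp3*, and the fit with no filter called 41. Genes called for their response, 1194 in control and 889 in the libraries labelled knockout, were 2021 and 1832 with no filter. With 1 library left out they ran from 145 (without control replicate 1) to 1484 (without control_TGFb2h replicate 1) and from 136 (without KO replicate 1) to 1381 (without control_TGFb2h replicate 2), and the offsets gave 1369 for the latter genotype. The control count also moved by over 1.5 times without control replicate 2 (314) and KO replicates 1 (617) and 2 (612), and the other count without control replicates 1 (574) and 2 (584), control_TGFb2h replicate 1 (1380), KO replicate 2 (174) and KO_TGFb2h replicate 2 (279). In those fits the lone sample of a group is assumed to vary like the other groups. With the replicate number as a block the count was again 0, with 1029 genes at an unadjusted p below 0.05, beside 1134. The correlations of same-numbered libraries ran from -0.473 (control_TGFb2h with KO_TGFb2h) to 0.297 (control with control_TGFb2h) and do not show the numbers as pairs. In the treated groups, replicate 1 of one genotype thus tended to go with replicate 2 of the other. With a replicate block in which the 2 treated libraries labelled knockout swapped numbers (this and the offsets were added after the data were seen), 5 genes were called (3 and 2), and 1954 and 1550 for the responses. With 1 library left out, the difference ran from -0.43 to 0.10 for *Zeb1*, and the cause of this and the other changes was not tested. Of the values of named genes under other settings, 1444 kept direction and side of the threshold, 72 came to pass it and 1 reversed. No named gene passed in the main edgeR fit, so keeping the side in that tally means staying uncalled. The named genes were chosen in large part for a small p in these same libraries, so the tally does not measure how stable other genes are. The number of libraries limits single genes, with a median standard error of 0.32.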

Other observations

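Some groups outside the comparisons above had small positive differences. Of 27 genes of mRNA decay and early RNA-binding regulators, 25 were positive, with a median of 0.20, beside 50% of all genes. With 1 library left out, 10 of 28 were negative without control replicate 2, and 8 of 28 without KO replicate 1, where the median was 0.12. *Zfp36l2*, which binds AU-rich elements and brings messages to decay, rose by 1.33 in the libraries labelled knockout (edgeR, adjusted p = 0.00331), from 95.5 and 102 to 211 and 288 CPM, and had 0.58 in control cells, a difference of 0.75 (standard error 0.25). Its relative *Zfp36* fell by 1.39 in control cells (edgeR, adjusted p = 0.0144) and had -0.32 in the libraries labelled knockout. *Btg1*, an antiproliferative partner of the deadenylase, rose by 0.71 in the libraries labelled knockout (edgeR, adjusted p = 0.0148), from 197 and 208 to 313 and 348 CPM, beside 222 and 224, then 239 and 215 CPM in control cells.

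Of 24 genes of the ATF4 stress response, 14 were positive with a median of 0.22, which was 0.09 without KO replicate 2, 0.13 without control replicate 1 and 0.46 without control_TGFb2h replicate 1. *Sesn2*, which restrains mTORC1, fell in both genotypes, by 1.75 and 0.91 (edgeR, adjusted p = 0.00175 and 0.0252). Of 25 cholesterol genes the median was 0.17, but it was -0.18 without control replicate 1 and 0.49 without control replicate 2. *Srebf1*, a regulator of lipid synthesis, went from 159 and 131 to 67.2 and 59.8 CPM in control cells, a fall by 1.19 (edgeR, adjusted p = 0.00308), and from 196 and 170 to 171.5 and 155 CPM in the libraries labelled knockout, with a difference of 1.02 (95% interval 0.53 to 1.52). *Insig2*, which holds SREBP in the endoplasmic reticulum, fell by 0.78 in control cells (edgeR, adjusted p = 0.0427) and had -0.07 in the other genotype. *Hk1*, the hexokinase of the first step of glycolysis, fell by 0.72 in control cells (edgeR, adjusted p = 0.0259) and stayed at 204 to 216 CPM in the libraries labelled knockout, while the 20 glycolysis genes had a median of 0.13 (0.04 to 0.32 with 1 library left out).

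Of 168 solute carriers, 117 were positive with a median of 0.17, which was 0.36 without control_TGFb2h replicate 1 (136 of 170 positive) and 0.10 with offsets for GC content and length. Chromatin remodelling genes (35 genes, 27 positive) had a median of 0.22 and histone-modifying enzymes (67 genes, 46 positive) of 0.11, which were 0.04 and -0.01 with those offsets. With 1 library left out they reached 0.36 (without KO_TGFb2h replicate 1) and 0.20 (without control_TGFb2h replicate 2). The median of 31 NF-κB and cytokine genes, -0.03, averaged replicates far apart. Their summed level was 4381 and 1680 CPM in control_TGFb2h and 1045 and 4834 CPM in KO_TGFb2h, and the median was -1.04 without KO_TGFb2h replicate 2 (29 of 31 negative) and 0.87 without control_TGFb2h replicate 1 (29 of 32 positive). NRF2 targets (21 genes, median -0.02) and heat-shock chaperones (21 genes, median -0.05) lay near the median of all genes. With 1 library left out these medians ran from -0.09 to 0.11 and from -0.12 to 0.17.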
